A study of Mus musculus with 4 samples.

Results

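The 10 genes described here are Fos, Fosb, Jun, Junb, Jund, Egr1, Atf3, Ier2, Hspa1a and Hspa1b, that is, 8 early response genes and the 2 genes of the inducible heat shock protein HSP70. They were taken by symbol from the count matrices, in which all 10 were listed, among 32285 features. Immediate early genes are transcribed within minutes of a stimulus from factors already present in the cell, with no need for new protein. FOS and JUN proteins pair to form the transcription factor AP-1, and EGR1 and ATF3 are transcription factors of the same rapid response. HSP70 is a chaperone that cells make when proteins unfold, and its inducible genes are switched on by the heat shock factor HSF1. In single-cell work both groups are known as genes whose transcripts can rise while a tissue is being digested.

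The data were single-cell 3′ RNA-seq counts of CD45-negative thymus cells from untreated 6-month-old C57BL/6 mice. The labels place 2 libraries in a group named Foxn1LacZ mock, with wild-type genotype (WT 1 and WT 2), and 2 in a group named Foxn1LacZ mutant, homozygous for LacZ (Z/Z 1 and Z/Z 2). Foxn1 encodes the transcription factor that thymic epithelial cells (TECs) need for their development, and the study used this allele, a hypomorph, as a model of reduced Foxn1. Thymi of several mice were pooled, cut up, digested with enzymes while warm, depleted of CD45-positive cells on magnetic columns and sorted. All 4 libraries went through this procedure, and no undigested thymus was analysed here. The level of a gene in the thymus and any change during digestion therefore cannot be told apart in any value given here.

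The libraries held 1192 to 5558 called cells and 8468086 to 50705511 UMIs, the counts of distinct transcript molecules. WT 2 was the smallest, with 456 kept cells against 1458 in the other WT library and 4455 and 3477 in the Z/Z libraries. Called barcodes were also shared inside a genotype, 202 between WT 1 and WT 2 and 249 between Z/Z 1 and Z/Z 2, whereas 0 to 6 were shared across genotypes. Foxn1 was detected in the TECs of every library, at 91.5 and 125 CPM (UMIs of a gene, scaled to the same total in every sum) in the WT libraries and 60.0 and 78.0 CPM in the Z/Z libraries, although 3′ counts may not report on the inserted allele. Values of a genotype are given throughout in the order replicate 1, replicate 2. Cells were clustered without the 10 genes and without any marker, and the clusters were then named from markers. The lineages were TEC-like (546, 105, 1405 and 1165 cells in WT 1, WT 2, Z/Z 1 and Z/Z 2), fibroblast-like (596, 191, 1156 and 725), endothelial-like (109, 25, 697 and 672) and mural-like, the pericytes and smooth muscle of vessels (71, 11, 466 and 327). Every lineage carried all of its own markers in all 4 libraries, such as Epcam, Pdgfra, Pecam1 and Acta2. For brevity the suffix is left out below.

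The positions of the genes (GRCm38, GENCODE vM21 annotation) place Hspa1a and Hspa1b next to each other on chromosome 17, at 34969190 to 34972156 and 34956436 to 34959238 on the minus strand, with 9951 bases between them. Fos lies on chromosome 12 at 85473890 to 85477273 and Jund on chromosome 8 at 70698949 to 70700616, both on the plus strand. On the minus strand are Fosb (chromosome 7, 19302696 to 19310051), Jun (chromosome 4, 95049034 to 95052222), Junb (chromosome 8, 84974484 to 84978718), Ier2 (chromosome 8, 84661331 to 84662852) and Atf3 (chromosome 1, 191170296 to 191218039). Droplet counts come mostly from the end of a transcript, and the 2 HSP70 transcripts differ there. They shared 63.8% and 67.5% of all runs of 31 bases but 0% in their last 400 bases, so reads from the transcript ends can be told apart, while reads from further upstream may be split or lost.

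RefSeq promoter windows on GRCm38.p6 were at hand for 8 of the 10 genes, not for Egr1 and Ier2. The 250 bases before the start site of Hspa1a and Hspa1b are shown because their counts were correlated from cell to cell, and those of Jun and Fosb because they were the other windows that held a searched motif. Each is written 5′ to 3′ along its gene, with the motif in capitals.
Hspa1a (chr17:34972157-34972406, minus strand): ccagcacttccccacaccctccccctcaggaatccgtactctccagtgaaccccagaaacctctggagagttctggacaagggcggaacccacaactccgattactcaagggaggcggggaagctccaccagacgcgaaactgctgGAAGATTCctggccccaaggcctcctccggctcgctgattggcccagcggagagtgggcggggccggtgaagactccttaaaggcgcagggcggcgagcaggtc
Hspa1b (chr17:34959239-34959488, minus strand): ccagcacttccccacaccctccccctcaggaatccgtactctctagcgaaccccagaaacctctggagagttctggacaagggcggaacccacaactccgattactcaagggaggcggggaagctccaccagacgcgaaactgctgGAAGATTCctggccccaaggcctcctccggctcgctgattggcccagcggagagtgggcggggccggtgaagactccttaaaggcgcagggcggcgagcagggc
Jun (chr4:95052223-95052472, minus strand): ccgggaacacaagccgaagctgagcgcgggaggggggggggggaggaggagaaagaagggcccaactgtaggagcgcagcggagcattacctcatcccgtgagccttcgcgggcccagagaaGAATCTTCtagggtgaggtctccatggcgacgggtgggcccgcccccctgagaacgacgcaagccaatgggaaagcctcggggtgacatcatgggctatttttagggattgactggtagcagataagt
Fosb (chr7:19310046-19310295, minus strand): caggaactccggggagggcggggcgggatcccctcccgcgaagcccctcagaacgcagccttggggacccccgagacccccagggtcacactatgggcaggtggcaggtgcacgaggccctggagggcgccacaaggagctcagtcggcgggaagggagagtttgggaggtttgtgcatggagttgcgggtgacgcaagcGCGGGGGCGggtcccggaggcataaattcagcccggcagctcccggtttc

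The windows of Hspa1a and Hspa1b were identical at 247 of 250 positions (98.8%). Each held 1 match to a heat shock element, the binding letters of HSF1 (GAANNTTC or TTCNNGAA, which read the same way on both strands), at 104 bases before the start, written -104. Jun held 1 match to the same letters at -128. These letters occurred in 12.8% of 32851 promoters of the same length. Fosb held 1 EGR site (GCGNGGGCG on either strand) at -50, which 4.70% of promoters held. No match was found in any of the 8 windows for the AP-1 site (TGANTCA, 6.75% of promoters), the cyclic AMP response element (TGACGTCA, 1.55%) or the serum response element (1.47%). This says only that these letters were absent from these windows. The RefSeq starts behind the windows were not always the GENCODE gene starts given above. The Jund window (chr8:70697489-70697738) lay upstream of the printed start at 70698949 and did not adjoin it. The Atf3 window (chr1:191183334-191183583) lay inside the printed span of the gene.

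All 10 genes were expressed in every stromal lineage of every library. Together they made up 0.807% to 2.09% of the UMIs of TECs, 1.28% to 1.85% in fibroblasts, 1.15% to 1.57% in endothelial cells and 1.59% to 1.93% in mural cells. Thymocytes left in the preparation, which had passed through the same digestion, were far lower, at 0.0847% to 0.18% of UMIs over sums of 7 to 90 cells. In thymocytes Fos had 72.3 and 33.8 CPM in the WT libraries and 135 and 50.6 CPM in the Z/Z libraries. That is below the Fos level in every stromal lineage of every library, where the lowest value was 1069.8 CPM, in the TECs of WT 1. The plot of CPM by lineage and library shows all 10 genes.

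**Figure D1:**
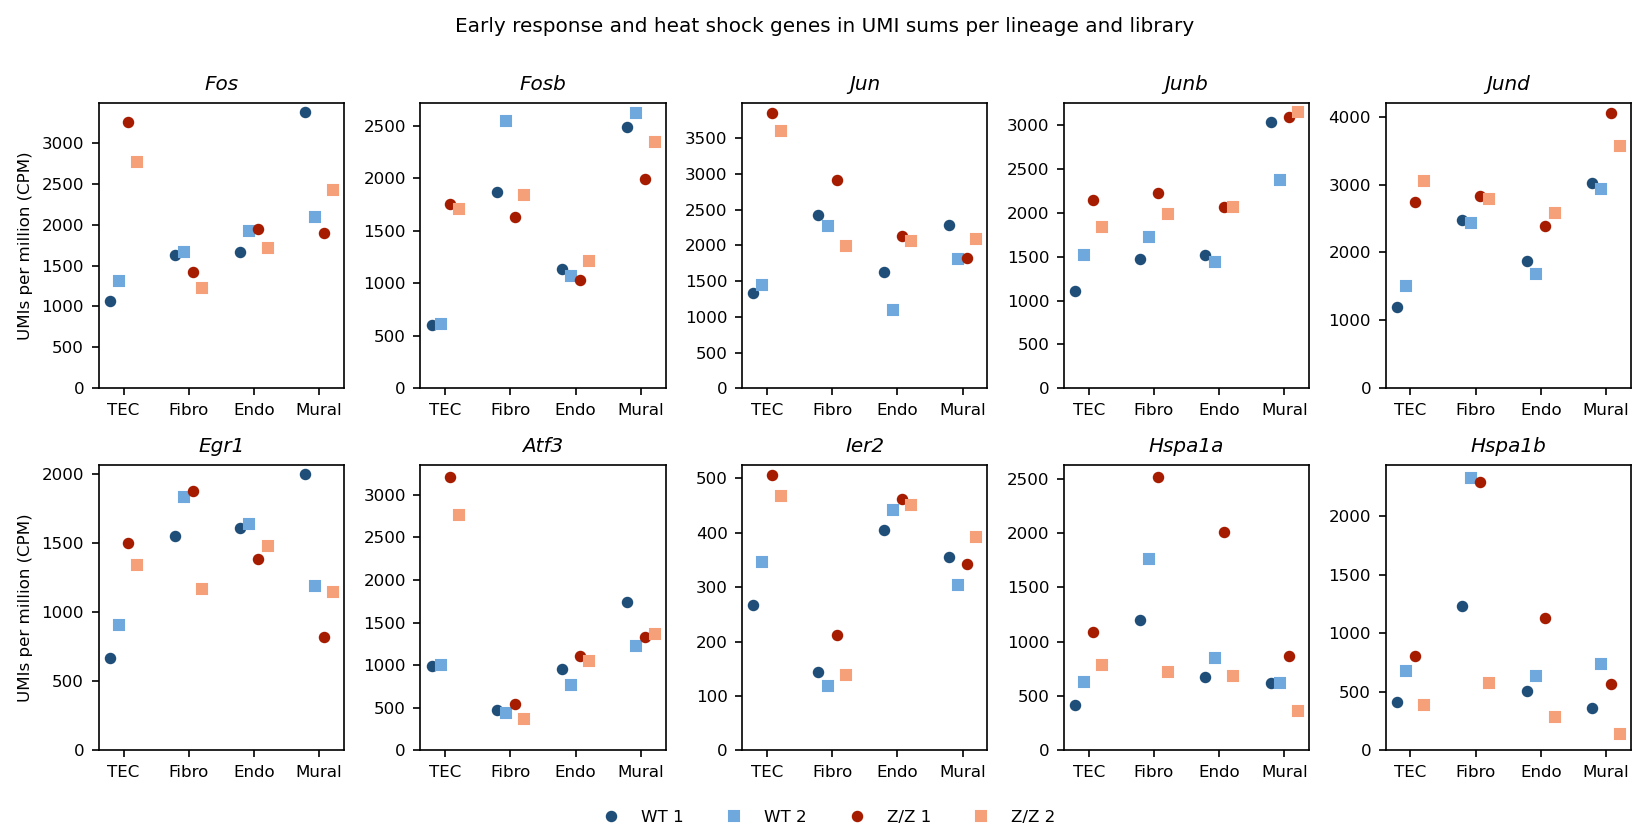
Level of each of the 10 genes in CPM (linear axis from 0, scaled per gene) in the summed cells of each lineage, with 1 point per library. The TEC points of Fos, Jun and Atf3 split by genotype, from 988 to 1441 CPM in WT and from 2760.4 to 3859.5 CPM in Z/Z, whereas the mural points of Junb lie at 2377 to 3153 CPM, above every other lineage.

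The question of which lineages differ was tested inside libraries, with library as a block, in edgeR's quasi-likelihood test over 16634 genes. Levels of 8 of the 10 genes differed between the 4 lineages at an adjusted p under 0.05, against 76.1% of all genes tested, so this share is near the background. DESeq2 called 7 of 10, against 13229 of 16634 genes, a share not above the background. The 2 genes without an edgeR call were Fos (adjusted p = 0.0930) and Jun (adjusted p = 0.225). Both had a different leading lineage in the 2 genotypes, mural cells for Fos and fibroblasts for Jun in WT, and TECs for both in Z/Z. With the Aire-stage TECs, medullary cells described below, left out, a choice made after seeing these data, Fos (edgeR adjusted p = 0.0189) and Jun (0.0383) were called and Egr1 was not (0.192).

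The mural cells stood highest for Junb, Jund and Fosb, in 4 of 4 libraries each. Junb, a JUN family protein that can also restrain JUN, had 3039 and 2377 CPM in the WT libraries and 3089 and 3153 CPM in the Z/Z libraries, against 1112 to 2147 CPM in TECs, 1469 to 2227 in fibroblasts and 1435 to 2068 in endothelial cells. The mural value was the highest within every library. Relative to TECs the log2 difference was 1.30 (SE 0.19, edgeR adjusted p = 2.28e-05). Jund, the JUN protein that resting cells also contain, had 3024 and 2941 CPM in the WT libraries and 4060.4 and 3571 CPM in the Z/Z libraries in mural cells. It was higher there than in TECs by 1.20 on the log2 scale (SE 0.21, edgeR adjusted p = 0.000155), while its mural and fibroblast levels did not differ beyond the test (adjusted p = 0.163). Fosb, a FOS family protein, had 2489 and 2619.9 CPM in the WT libraries and 1999 and 2349 CPM in the Z/Z libraries in the same cells. Its difference from TECs was 1.53 (SE 0.31, edgeR adjusted p = 0.000754), and its mural and fibroblast levels did not differ beyond the test (adjusted p = 0.532). TECs had 600.4 and 615 CPM of Fosb in the WT libraries and 1755 and 1707 CPM in the Z/Z libraries. The value of 1.53 thus pools a larger gap in WT with a smaller one in Z/Z. In the fit over all 4 libraries these 3 genes were the only calls among the 10 between mural cells and TECs (48.7% of all genes called) and between mural and endothelial cells (35.4%). In the WT libraries alone, with 11 mural cells in WT 2, all of the early response genes but Ier2 were called between mural cells and TECs, 7 of 10 and all higher in mural cells (37.9%). In the Z/Z libraries alone 5 of 10 were called, Junb, Jund and Fosb higher and Jun and Atf3 lower in mural cells (53.3%).

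Fibroblasts were set apart by low Atf3 and Ier2 and by high Hspa1b. Atf3, a stress-induced repressor that binds AP-1 and CRE sites, had 469.9 and 434 CPM in the WT libraries and 542 and 369 CPM in the Z/Z libraries. Those 4 values lie below all values of the other 3 lineages, 988 to 3208 CPM in TECs, 773 to 1106 in endothelial cells and 1223 to 1741 in mural cells. The difference from TECs was −1.60 on the log2 scale (SE 0.29, edgeR adjusted p = 0.000192) and mural cells exceeded fibroblasts by 1.67 (SE 0.29, edgeR adjusted p = 0.000269). The former pools the genotypes, with TECs at 988 and 1003 CPM in the WT libraries and 3208 and 2760.4 CPM in the Z/Z libraries. Ier2, a small early response protein of the nucleus, had 145 and 118 CPM in the WT libraries and 212 and 139 CPM in the Z/Z libraries and endothelial cells exceeded fibroblasts by 1.49 (SE 0.18, edgeR adjusted p = 4.33e-06). Endothelial values were 405 and 441 CPM in the WT libraries and 462 and 451 CPM in the Z/Z libraries, and fibroblast and endothelial values did not overlap.

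Hspa1a in fibroblasts was 1204 and 1762 CPM in the WT libraries and 2519 and 719.8 CPM in the Z/Z libraries. In Z/Z 2 the TECs were higher for this gene, at 790.2 CPM, and endothelial cells and fibroblasts did not differ beyond the test (edgeR adjusted p = 0.0691). Hspa1b in fibroblasts was 1230.3 and 2327 CPM in the WT libraries and 2294 and 576 CPM in the Z/Z libraries. Within each library the fibroblast level of Hspa1b exceeded that of the other 3 lineages, although Z/Z 2 was lower than the other libraries. The log2 difference between fibroblasts and TECs was 1.75 for Hspa1b (SE 0.24, edgeR adjusted p = 1.07e-05) and 1.41 for Hspa1a (SE 0.27, edgeR adjusted p = 0.000271). The difference between mural cells and fibroblasts was −1.83 for Hspa1b (SE 0.24, edgeR adjusted p = 1.89e-05) and −1.23 for Hspa1a (SE 0.27, edgeR adjusted p = 0.00185).

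Over the pairs of lineages, fibroblasts differed from TECs for 8 of the 10 genes, 6 higher and 2 lower, against 57.3% of all genes. Endothelial cells differed from TECs for 4 of 10, Junb, Egr1, Ier2 and Hspa1a, all higher, against 51.1%. In the WT libraries alone 5 of 10 differed, Fos, Fosb, Egr1, Ier2 and Hspa1a, all higher in endothelial cells (41.0% of all genes). In the Z/Z libraries alone 4 of 10 differed, Junb and Hspa1a higher and Jun and Atf3 lower in endothelial cells (57.3%). Endothelial cells and fibroblasts differed for 4 of 10, 2 in each direction, against 38.5%, and mural cells and fibroblasts for 5 of 10, 3 higher and 2 lower, against 33.8%. Egr1, a zinc finger transcription factor, had 1549 and 1832 CPM in the WT libraries and 1879.9 and 1165 CPM in the Z/Z libraries in fibroblasts, and 665 to 1499.6 CPM in TECs. It was higher in fibroblasts than in TECs by 0.95 on the log2 scale (SE 0.29, edgeR adjusted p = 0.00985). Its neighbours in the order of levels, fibroblasts, endothelial cells and mural cells, did not differ beyond the test (adjusted p = 0.486 to 0.787). For Fos and Jun no pair of lineages differed in the fit over all 4 libraries. Without the Aire-stage TECs, Junb and Egr1 no longer differed between fibroblasts and TECs (56.1% of all genes called), nor did Junb, Egr1, Ier2 and Hspa1a between endothelial cells and TECs. The 2 calls left in the latter pair, Jun and Atf3, were lower in endothelial cells (51.4%).

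The comparison of the genotypes asks whether the response genes differ when Foxn1 is reduced. In TECs 7 of the 10 genes were higher in Z/Z and none was lower, at an edgeR adjusted p under 0.05. The background was 19.5% of 18735 genes called in either direction and 8.89% called higher. Fos had 1069.8 and 1308 CPM in the WT libraries and 3253 and 2766 CPM in the Z/Z libraries. Jun had 1337 and 1441 CPM in the WT libraries and 3859.5 and 3607 CPM in the Z/Z libraries. Both Z/Z values lay above both WT values, and the log2 fold changes were 1.48 for Fos (SE 0.21, edgeR adjusted p = 0.0132) and 1.56 for Jun (SE 0.18, edgeR adjusted p = 0.0104).

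Atf3 had 988 and 1003 CPM in the WT libraries and 3208 and 2760.4 CPM in the Z/Z libraries, and Fosb had 600.4 and 615 CPM in the WT libraries and 1755 and 1707 CPM in the Z/Z libraries. Atf3 showed the largest fold change of the 10, 1.72 on the log2 scale (SE 0.19, edgeR adjusted p = 0.0104), and Fosb followed with 1.65 (SE 0.16, edgeR adjusted p = 0.00974). Jund had 1193 and 1501 CPM in the WT libraries and 2746 and 3051 CPM in the Z/Z libraries, a log2 fold change of 1.24 (SE 0.20, edgeR adjusted p = 0.0185). Smaller changes were called for Egr1 and Ier2. Egr1 had 665 and 909.7 CPM in the WT libraries and 1499.6 and 1338 CPM in the Z/Z libraries, a log2 fold change of 0.99 (SE 0.22, edgeR adjusted p = 0.0338). Ier2 had 268 and 346 CPM in the WT libraries and 505 and 468 CPM in the Z/Z libraries, a change of 0.80 (SE 0.18, edgeR adjusted p = 0.0375).

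No call was made for Junb, Hspa1a and Hspa1b in TECs. Junb had 1112 and 1521 CPM in the WT libraries and 2147 and 1835 CPM in the Z/Z libraries (edgeR adjusted p = 0.0753). Hspa1a had 421 and 627 CPM in the WT libraries and 1089.8 and 790.2 CPM in the Z/Z libraries (edgeR adjusted p = 0.0575). In both genes the genotypes did not overlap. Hspa1b had 412 and 681 CPM in the WT libraries and 801 and 392 CPM in the Z/Z libraries (edgeR adjusted p = 0.672) and its values overlapped, with Z/Z 2 the lowest. At an unadjusted edgeR p under 0.05, 9 of the 10 genes passed, against 6935 of all 18735 genes. DESeq2 called 9 of the 10, against 4145 of 18735 genes. Non-overlapping values were found for 9 of 10 genes, all higher in Z/Z, against 66.9% of all genes tested.

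The 10 genes together made up 0.901% ± 0.133 (SD, n = 2) of the UMIs of WT TECs and 1.98% ± 0.152 (SD, n = 2) of those of Z/Z TECs. The exact permutation p was 0.33, the smallest that 2 libraries against 2 can give. In endothelial cells the share was 1.18% in WT and 1.46% in Z/Z, also without overlap (exact permutation p = 0.33). In fibroblasts and mural cells the genotypes overlapped. Since replicates are described only as separate libraries of pooled thymi, all p-values measure the spread between these libraries, which may be technical. Without cells whose barcode was called in another library edgeR called 0 of 10 in TECs (0.00576% of all genes), with 9 at an unadjusted p under 0.05 (2953 of 17361 genes). The adjusted edgeR p was 0.130 to 0.187 for the 7 genes, with log2 fold changes of 1.13 to 1.80. That fit kept 51 TECs of WT 2. With 1 library left out at a time, 4 of 10 genes were called without WT 1 and without Z/Z 1, 5 without Z/Z 2 and 8 without WT 2.

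The TECs of the 2 genotypes were made up of different cells. Clusters expressing Aire, Fezf2, Cd80 and Cd40, here called Aire-stage, the medullary cells that present tissue antigens, held 51.1% and 47.6% of WT TECs but 4.13% and 6.87% of Z/Z TECs. Their share of TEC UMIs was 59.7% and 62.1% for the WT libraries, and 7.56% and 13.5% for the Z/Z libraries. Summed over the 8 early response genes, the Aire-stage cells had 4355 and 4958 CPM in the WT libraries and 4877 and 5816 CPM in the Z/Z libraries. The clusters that no marker list named had 14531 and 14539.9 CPM in the WT libraries and 22266 and 20501 CPM in the Z/Z libraries, and took up 23.3% and 30.5% of WT against 69.6% and 62.1% of Z/Z epithelial cells. The Aire-stage cells were lower than the sum of the unnamed clusters in 4 of 4 libraries. The unnamed sub-cluster led by Slit3 and Kctd16 was lower still, at 1043 CPM in WT 1 and 1913 and 2337 CPM in the Z/Z libraries. The unnamed sum mixed sub-clusters in shares that differed by genotype. The one led by Gm26917 and Peak1 held 40 of 127 such cells in WT 1 and 77 of 978 in Z/Z 1. It had 9942 CPM in WT 1 and 10048 and 13216 CPM in the Z/Z libraries. The one led by Gm26802 and Kctd16 held 12 and 220 of them and had 14286 CPM against 29730 and 27407 CPM. How far this mix set the unnamed sum was not tested. The plot of the epithelial classes shows these levels beside the shares of cells.

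**Figure D2:**
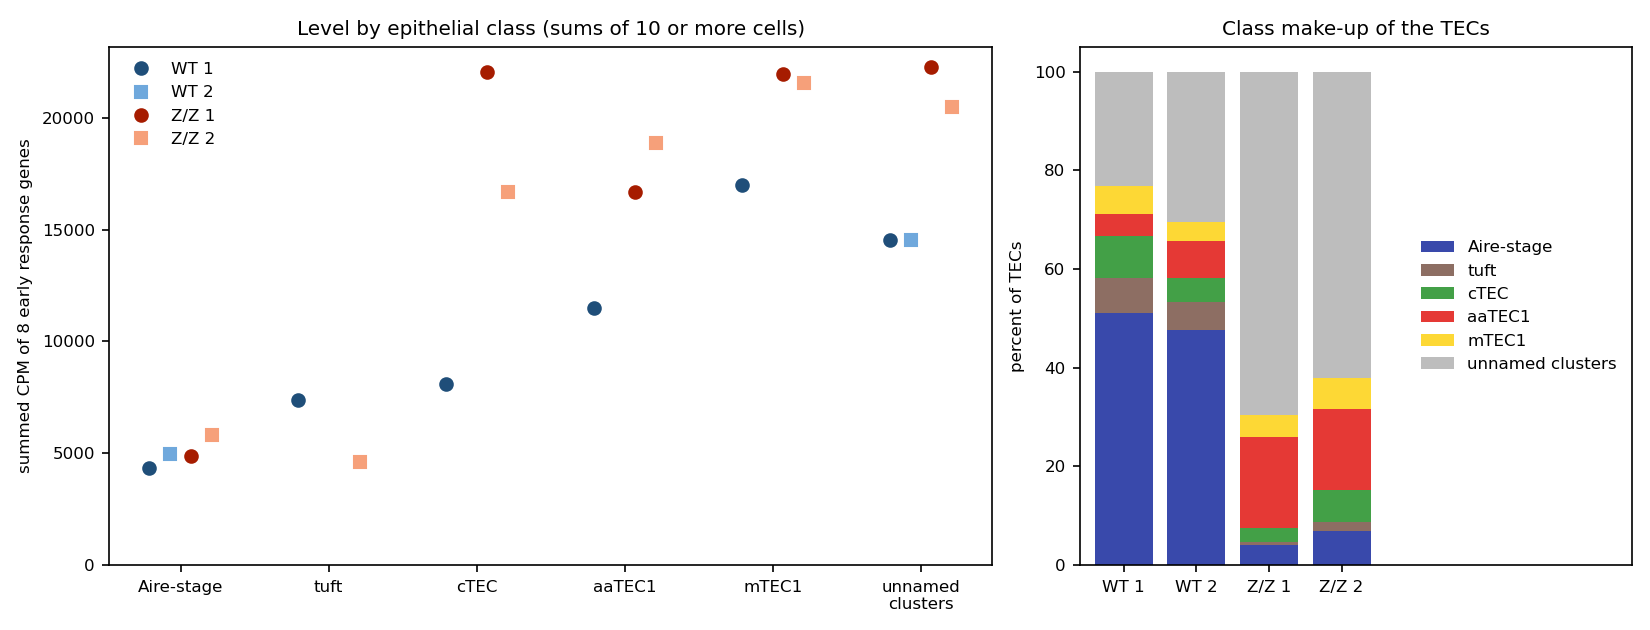
Left, the summed level of the 8 early response genes in CPM (linear axis from 0) in each epithelial class, with 1 point per library where the class held 10 or more cells. Right, the percent of TECs in each class per library. The Aire-stage points of all 4 libraries lie at 4355 to 5816 CPM, and this class takes 51.1% and 47.6% of TECs in WT but 4.13% and 6.87% in Z/Z.

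Other named classes could be compared between genotypes only in WT 1, because WT 2 held too few of their cells. Cortical cells (cTEC), which express Psmb11 and Prss16, had 8112 CPM of the 8 genes in WT 1 against 22022 and 16667 CPM in the Z/Z libraries. Their median depth was 31267 UMIs in WT 1 and 10230 and 13365 UMIs in the Z/Z libraries, and the part of depth was not tested. Medullary cells with Ccl21a and Krt14 (mTEC1) had 17003, 21944 and 21564 CPM in the same order. The class with the markers of age-associated TECs (aaTEC1, Cldn3 and Plet1) had 11477, 16691 and 18871 CPM. In these 3 class sums the Z/Z values lay above the single WT value. The aaTEC1 class held more than 1 sub-cluster, and in the one with 16 of the 25 WT 1 cells the values were 16867 CPM in WT 1 against 16961 and 19356 CPM in the Z/Z libraries. A smaller sub-cluster of the class, led by Chga and Stxbp5l, had 6429 CPM over its 27 cells of all libraries. Its leading genes include Car8, by which the paper marks neural TECs. Its mean relative level of the aaTEC1 markers was 0.51, against a limit of 0.5 for a class name. It gave 9 of the 25 WT 1 cells of the class but 9 of 260 and 9 of 192 in the Z/Z libraries, so the class sums differ in make-up. Tuft cells had 7374 CPM in WT 1 and 4593 in Z/Z 2, the other direction. With 1 WT library these differences have no replicate check.

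The TEC comparison was repeated on other sets of cells, of which the sums without and of the Aire-stage class were chosen after seeing these data. With the Aire-stage cells left out, 0 of the 10 genes were called by edgeR, 5 had an unadjusted p under 0.05, and 1.65% of 16278 genes were called. The log2 fold changes were then 0.61 for Fos, 0.65 for Jun, 0.80 for Fosb, 0.86 for Atf3 and 0.99 for Jund, with adjusted p from 0.0936 to 0.220. In the Aire-stage cells alone 0 of 10 were called, 3 had an unadjusted p under 0.05, and 0.00795% of 12582 genes were called. Jun had the largest value there, 0.89 (SE 0.17, edgeR adjusted p = 0.251), from 605 and 506 CPM in the WT libraries and 1018 and 1037 CPM in the Z/Z libraries. With the same number of cells drawn from each cluster in every library, 104 TECs per library, edgeR called 0 of 10, none had an unadjusted p under 0.05, and 0% of 13331 genes were called. The log2 fold changes of the 10 genes then ran from −0.29 to 0.34. The library with the fewest cells of a cluster set the number drawn. The 2 Aire-stage clusters therefore gave 39 and 11 of the 104 cells, and clusters absent from WT 2 gave none. These fits used fewer cells than the full sums, and a missed call does not show equal levels. How much of each TEC difference came from the mix of classes and how much from levels inside a class was not tested beyond these fits.

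**Figure D3:**
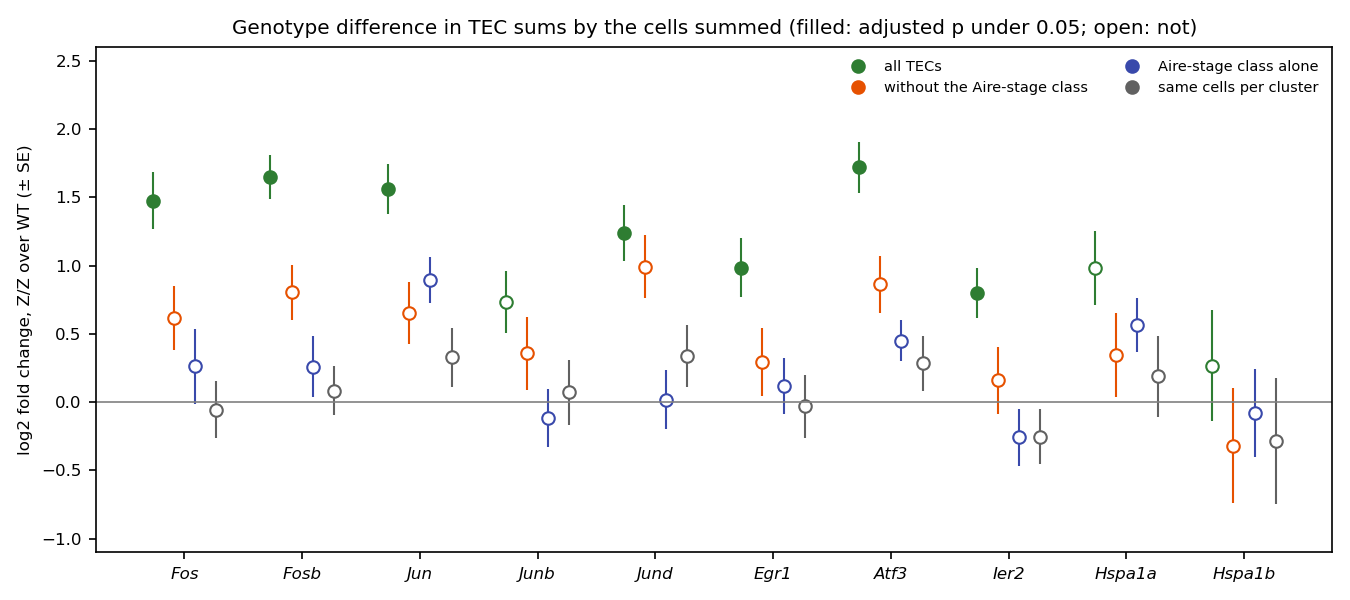
Log2 fold change of Z/Z over WT (points, with SE as bars) for the 10 genes in sums of all TECs, of TECs without the Aire-stage class, of the Aire-stage class alone and of the same number of cells per cluster. Filled points, an edgeR adjusted p under 0.05, occur only for all TECs, and Fos moves from 1.48 in all TECs to 0.61, 0.26 and −0.06 in the other sums.

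Markers of other cells also differed between the TEC sums. The 5 myeloid markers, all with UMIs in every library, summed to 279 and 697 CPM in WT and 68.2 and 95.1 CPM in Z/Z. The 3 parathyroid markers summed to 926 and 23.0 CPM in the WT libraries and 194 and 19.4 CPM in the Z/Z libraries. A WT epithelial cell had a median of 15926.5 and 16966 UMIs, against 6617 and 7214 for a Z/Z cell. The part of these differences in the TEC result was not tested. With every cell thinned to 2000 UMIs the 10 genes made up 0.946% of UMIs in WT and 2.03% in Z/Z, close to the values without thinning. Thinning weights cells equally but keeps each cell's expected share of the 10 genes. It therefore cannot show whether cells of lower depth differ in level.

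In the other 3 lineages no gene of the 10 was called between genotypes. In fibroblasts 0 of 10 passed (2.99% of all genes did). There 1 had an unadjusted edgeR p under 0.05 (2509 of 13857 genes did) and DESeq2 called 0 (574 of 13319 genes). In endothelial cells 0 of 10 passed (2.09% of all genes did), with 4 at an unadjusted p under 0.05 (2111 of 11368 genes) and 0 by DESeq2 (195 of 4095 genes). In mural cells 0 of 10 passed, as did 0% of all genes, with 1 at an unadjusted p under 0.05 (786 of 9072 genes) and 0 by DESeq2. DESeq2 called 14 of 4323 genes there. Only 25 endothelial and 11 mural cells of WT 2 stand behind these sums. In simulated counts with the same dispersion for every gene, a true log2 change of 1 was called for 35.7% of changed genes in fibroblasts, 13% in endothelial and 5.53% in mural cells. A missing call in these lineages therefore does not show equal levels. Groups that did not overlap were found for 4 of 10 genes in fibroblasts (50.9% of all genes), 6 in endothelial cells (53.1%) and 4 in mural cells (42.3%).

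Fos in fibroblasts was 1625 and 1667 CPM in the WT libraries and 1417 and 1224 CPM in the Z/Z libraries, so the Z/Z values were the lower ones there. Jun in endothelial cells was 1624 and 1093 CPM in the WT libraries and 2127 and 2065 CPM in the Z/Z libraries, with Z/Z above WT and an edgeR adjusted p of 0.190. Egr1 in mural cells was 1999 and 1188 CPM in the WT libraries and 817 and 1149 CPM in the Z/Z libraries, with Z/Z below WT and an edgeR adjusted p of 0.552. Whether the genotype difference itself depended on the lineage was tested as an interaction. It did for 4 of the 10 genes, Fosb (edgeR adjusted p = 0.000402), Atf3 (0.00144), Fos (0.00361) and Jun (0.00831), against 12.0% of all genes. DESeq2 called 5 of the 10, against 2152 of 14376 genes. With the Aire-stage cells left out of the TECs 0 of 10 passed this test (4.07% of all genes did), with 2 at an unadjusted p under 0.05. The plot of fold changes by lineage shows all values.

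**Figure D4:**
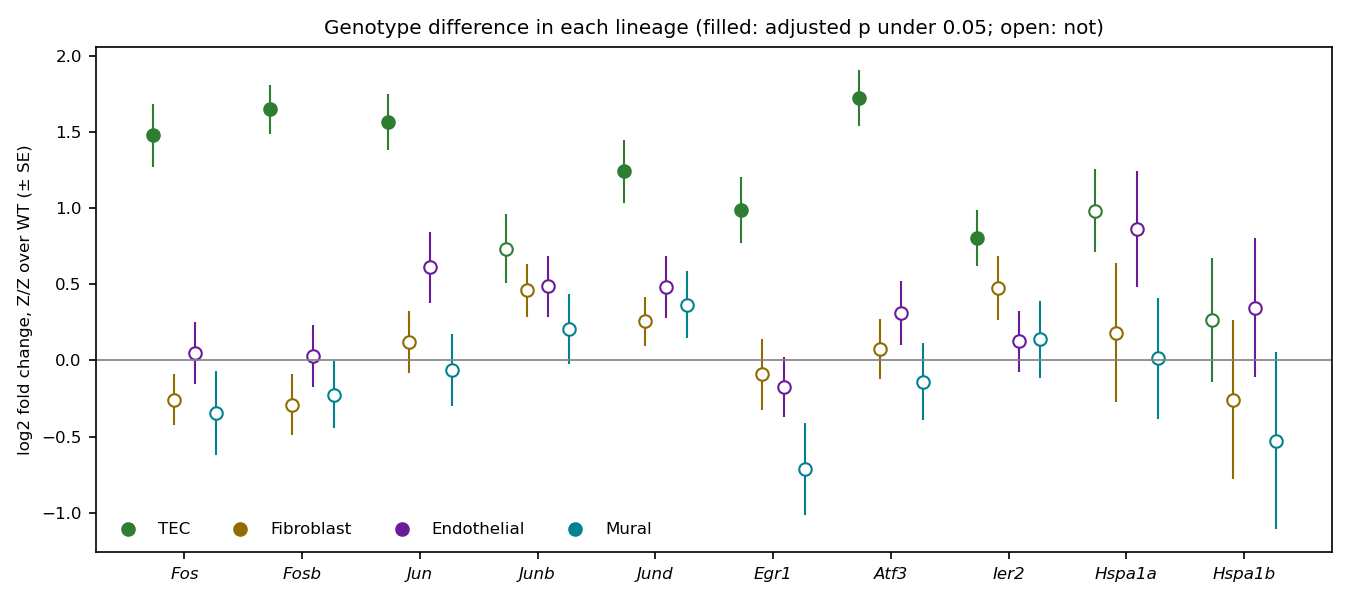
Log2 fold change of Z/Z over WT with its SE for each gene in the 4 lineages. Filled points passed an edgeR adjusted p of 0.05 and all 7 belong to TECs, from 0.80 for Ier2 to 1.72 for Atf3, whereas the other lineages lie between −0.72 and 0.86.

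The summed level of the 2 heat shock genes differed between libraries of a genotype. Summed over both, fibroblasts had 2434 and 4088 CPM in the WT libraries and 4812 and 1296 CPM in the Z/Z libraries, and endothelial cells had 1181 and 1477 CPM in the WT libraries and 3142 and 973 CPM in the Z/Z libraries. TECs had 833 and 1308 CPM in the WT libraries and 1891 and 1182 CPM in the Z/Z libraries, and mural cells had 984 and 1353 CPM in the WT libraries and 1436 and 502 CPM in the Z/Z libraries. In every lineage Z/Z 1 exceeded Z/Z 2, and in every lineage WT 2 exceeded WT 1. The SD between the Z/Z libraries in fibroblasts was 2487 CPM around a mean of 3054 CPM, against 1528 CPM around 12579 CPM for the sum of the 8 early response genes. This does not hold gene by gene in WT, where mural Hspa1a was 622 and 616 CPM against 1999 and 1188 CPM for Egr1.

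Classes inside the other lineages also differed in level, by values that were not tested because they come from clusters found after the data were seen. Capsular fibroblasts, with Dpp4 and Pi16, had 6026 and 5448 CPM in the WT libraries and 6880.4 and 7582 CPM in the Z/Z libraries for the 8 early response genes. Other fibroblasts, summed together, had 14787 and 15042 CPM in the WT libraries and 15732 and 13236 CPM in the Z/Z libraries, higher in 4 of 4 libraries. Single sub-clusters overlapped. One outside the capsular class, led by Sult1e1 and Wt1, had 14990 CPM in WT 1 and 8469 and 8060 CPM in the Z/Z libraries. The capsular sub-cluster led by Hp and Sfrp2 had 12592 CPM in WT 1 and 6787 and 8177 CPM in the Z/Z libraries. For Jun alone, capsular cells had 591 and 408 CPM in the WT libraries and 626 and 808 CPM in the Z/Z libraries. The other fibroblasts had 3278 and 2766 CPM in the WT libraries and 3613 and 2513 CPM in the Z/Z libraries. The heat shock pair followed the same order, with 339 and 723 CPM in the WT libraries and 709 and 297 CPM in the Z/Z libraries in capsular cells. Other fibroblasts had 3394 and 4974 CPM in the WT libraries and 6067 and 1739 CPM in the Z/Z libraries. Clustering inside a lineage used variable genes that the response may touch, although the 10 genes were held out, so a cluster may partly reflect the response.

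Venous endothelium, with Selp and Ackr1, was the lowest of the named classes of its lineage. It had 7911 CPM of the early response genes in WT 1 and 6439 and 6479.9 CPM in the Z/Z libraries. Capillary cells had 15479, 13885 and 15171 CPM, and arterial cells 13161, 16141 and 15571 CPM. An unnamed sub-cluster led by Ccdc85a and Zfp366 had 7088, 11646 and 7798 CPM in the same order, below the venous cells in WT 1. The heat shock pair was lower in venous cells still, at 104, 641 and 54.6 CPM, against 1367, 4346 and 1459 CPM in capillary cells. WT 2 held under 10 cells of each of these classes, and WT 1 held 11 capillary, 20 arterial and 26 venous cells. The Z/Z libraries held 334 and 311 capillary cells.

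Mural classes separated the heat shock pair from the early response genes. Smooth muscle, with Acta2 and Myh11, had 322, 203 and 125 CPM of Hspa1a and Hspa1b in WT 1, Z/Z 1 and Z/Z 2. Pericytes, with Kcnj8 and Vtn, had 4038 and 1760.4 CPM in the Z/Z libraries. The early response genes, in contrast, were at 18806, 14046 and 16950.0 CPM in smooth muscle and 19924 and 17951 in pericytes. Smooth muscle thus combined a high sum of the early response genes with few heat shock transcripts in all 3 libraries with enough cells. This did not hold for each gene and sub-cluster. Over all libraries the smooth muscle sub-cluster led by Man1b1 and Abt1 (149 cells) had 11924 CPM of the 8 genes, with Egr1 at 332 and Jun at 875 CPM. The other smooth muscle sub-clusters had 17049 and 20287 CPM of the 8 genes.

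**Figure D5:**
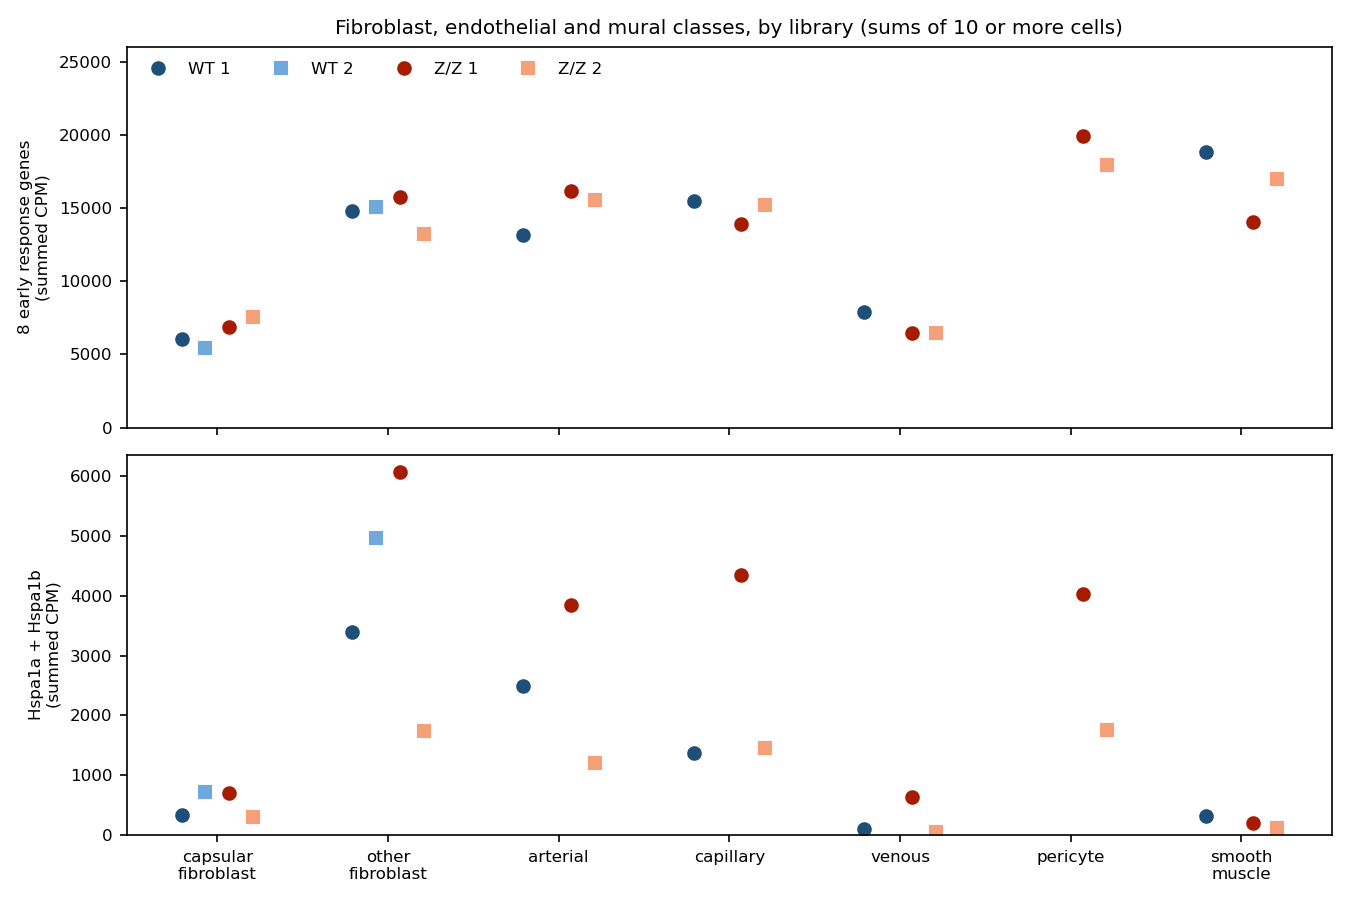
Summed CPM of the 8 early response genes (upper) and of Hspa1a and Hspa1b (lower) in fibroblast, endothelial and mural classes, with 1 point per library holding 10 or more cells of the class and linear axes from 0. Capsular fibroblasts and venous cells are low for both sums, whereas smooth muscle is high for the early response genes, 14046 to 18806 CPM, and low for the heat shock pair, 125 to 322 CPM.

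The spread from cell to cell was wide. In TECs of WT 1 the 10 genes made up 0.0899% of a cell's UMIs at the lower decile of cells, 0.543% at the median and 2.20% at the upper decile. In TECs of Z/Z 1 these were 0.125%, 1.61% and 4.67%. Sub-clusters of TECs spanned a similar range. Over all libraries the sub-cluster led by Slit3 and Kctd16 (223 cells, median 3343 UMIs, 2.34% mitochondrial UMIs) had 1918 CPM of the 8 genes. The sub-cluster led by Gm26802, Kctd16 and Rtn2 (398 cells, median 5382 UMIs, 2.13% mitochondrial UMIs), which has Hspa1a among its leading genes, had 28113 CPM. Both share leading genes and neither took a class name.

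For Fos in TECs, the share of cells with at least 1 UMI was higher in Z/Z, like the level, after depth was made equal. Within a genotype the share did not follow the CPM of the libraries. With each cell thinned to 2000 UMIs, Fos was detected in 54.4% and 47.6% of WT TECs and in 75.2% and 78.8% of Z/Z TECs, against 76.4%, 73.3%, 85.1% and 88.2% without thinning. Thinning left out 17 and 2 WT and 46 and 65 Z/Z TECs. In thymocytes, whose median depth was 2840.0 to 4779.5 UMIs, the thinned share was 5.88% in both WT libraries and 28.6% and 16.1% in the Z/Z libraries, from 7 to 85 cells. The shares in TECs exceeded these in every library. At least 6 of the 8 early response genes were seen together in 37.4% ± 0.646 (SD, n = 2) of thinned WT TECs and 68.8% ± 4.33 (SD, n = 2) of thinned Z/Z TECs (exact permutation p = 0.33, again the smallest possible). In endothelial cells these shares were 45.7% ± 8.08 and 69.5% ± 3.13 (SD, n = 2), with the same exact permutation p. In fibroblasts (45.2% in WT and 46.6% in Z/Z) and mural cells (74.7% and 70.6%) the genotypes overlapped.

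From cell to cell the genes were correlated to differing degrees. Spearman correlations were taken over thinned cells in the 14 combinations of library and lineage with enough cells, as a description. The median was highest for Fos and Jun, the partners in AP-1, at 0.628 (range 0.422 to 0.763). Jun with Egr1 had 0.605 and Fos with Egr1 0.586. Hspa1a and Hspa1b, whose promoter windows are shown above, had 0.579 (range 0.368 to 0.748). The lowest median of all pairs was that of Fos and Jund, 0.150. Cells of a library share depth and handling, and sparse counts lower such values.

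Genes whose level across the 16 sums of library and lineage was most like the mean of the 8 early response genes, after removing each library's mean, were Hoxa3 (Pearson r = 0.917), Klhl14 (0.907), Flot2 (0.907), Gm26802 (0.895) and Hoxb3os (0.889), followed by Mprip, Nab2, Gadd45g, Sh3rf1 and Lpcat3 (0.879 to 0.886). Nab2 is a co-repressor of EGR proteins and Gadd45g a stress-response gene. For Hspa1a and Hspa1b they were Rbms1 (0.951), Pde7b (0.942), Ern1 (0.937), Myh10 (0.929) and Tent4a (0.926). Ern1 encodes a sensor of unfolded protein in the endoplasmic reticulum. These are the highest of 16634 genes over 4 lineages and 4 libraries, and the sums share libraries.

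Related genes were counted in lists chosen by function. Among 19 other early response genes, 10 differed between genotypes in TECs, 8 higher and 2 lower in Z/Z, against 19.5% of all genes called, with a median log2 fold change of 0.30 over the list and a value close to 0 over all genes. Ier3, an early response gene that affects survival, rose by 1.91 (SE 0.15, edgeR adjusted p = 0.00915), and Cebpd, a C/EBP transcription factor, by 1.86 (SE 0.14, adjusted p = 0.00848). Egr3, a relative of Egr1, fell by 1.51 (SE 0.18, adjusted p = 0.0106), and the nuclear receptor Nr4a3 fell by 1.01 (SE 0.21, adjusted p = 0.0313). In fibroblasts 3 of 19 were higher in Z/Z and none lower, against 2.99% of all genes called, with Nr4a3 at 1.80 (SE 0.20, edgeR adjusted p = 0.00225) and Nr4a1 at 1.24 (SE 0.16, adjusted p = 0.00539). Neither count of this list was kept in every fit. Without the Aire-stage cells 0 of 19 were called in TECs, and without Z/Z 1 edgeR called 0 of 14335 genes in fibroblasts (1881 at an unadjusted p under 0.05).

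Of 10 feedback inhibitors, proteins that end the response, 5 were higher in Z/Z TECs and none lower, against 19.5% of all genes called. They were led by the phosphatase gene Dusp5 at 2.09 (SE 0.18, edgeR adjusted p = 0.00947) and Socs3, an inhibitor of cytokine signalling, at 2.01 (SE 0.24, adjusted p = 0.0104). Of 12 chaperones and co-chaperones other than the pair, 3 were higher in Z/Z TECs, a share near that background, among them the small heat shock gene Hspb1 at 1.36 (SE 0.29, adjusted p = 0.0323) and the HSP70 partner Bag3 at 0.90 (SE 0.17, adjusted p = 0.0248). In endothelial cells 4 of 12 chaperones were higher in Z/Z, against 2.09% of all genes called in either direction, with the constitutive HSP70 gene Hspa8 at 1.40 (SE 0.24, edgeR adjusted p = 0.0153) and Hsp90ab1 at 1.17 (SE 0.21, adjusted p = 0.0176). The median of the list there was 0.96 against 0.02 over all genes, while Hspa1a and Hspa1b themselves were not called. Capillary cells made up 10.1% and 4% of WT against 47.9% and 46.3% of Z/Z endothelial cells, and with the same number of cells drawn from each cluster edgeR called 0 of 3877 genes there (355 at an unadjusted p under 0.05). The part of this make-up in the endothelial list counts was not tested further. Endothelial Hspa1a had 674 and 846 CPM in the WT libraries and 2012 and 689 CPM in the Z/Z libraries, with Z/Z 1 standing above the others.

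Of 8 AP-1 relatives only Batf3, a partner of JUN in immune cells, was called in TECs, lower in Z/Z by a log2 fold change of −2.63 (SE 0.37, edgeR adjusted p = 0.0127), against 19.5% of all genes called. In endothelial cells Jdp2 (1.59, SE 0.27, edgeR adjusted p = 0.0153) and Fosl1 (1.44, SE 0.33, adjusted p = 0.0457) were higher in Z/Z, against 2.09% of all genes. Of 11 upstream regulators 1 was called in TECs, the SRF co-activator gene Mrtfa at 0.55 (SE 0.14, adjusted p = 0.0499), a share under the background. With the Aire-stage cells left out, 1 gene of the 5 lists was called in TECs, a feedback inhibitor. That fit called 268 genes in all, against 3646 in the sums of all TECs.

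Between lineages the lists showed where the wider response genes stood. Fosl2, a FOS relative, was higher in mural cells than in TECs by 3.40 on the log2 scale (SE 0.22, edgeR adjusted p = 2.6e-09), as was Nr4a2 by 4.31 (SE 0.26, adjusted p = 1.24e-09) and Cebpb by 4.17 (SE 0.22, adjusted p = 3.99e-10). In that pair 14 of 19 other early response genes were higher in mural cells and 2 lower, against 48.7% of all genes called, among the latter Klf6 at −1.30 (SE 0.24, adjusted p = 0.000293). Between fibroblasts and TECs 7 of 12 chaperones were higher in fibroblasts and none lower, a share near the 57.3% of all genes called, with Hsph1 at 2.49 (SE 0.27, adjusted p = 7.36e-07) and Bag3 at 2.02 (SE 0.20, adjusted p = 2.3e-07). Between mural cells and fibroblasts 8 of 12 were lower in mural cells and 1 higher, Hspb1 at 1.07 (SE 0.31, adjusted p = 0.0146), against 33.8% of all genes called.

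Cells of the cluster led by Nos1, which no lineage list named, were found almost only in Z/Z, with 12, 0, 550 and 379 cells. The 10 genes made up 2.17% of their UMIs in Z/Z 1 and 2.03% in Z/Z 2, close to the TECs of those libraries. Fos there was 3389.7 and 3037 CPM, and Jun 3292 and 3756 CPM. With these cells added to the TECs, a choice made after seeing the data, 8 of the 10 genes were called between genotypes, against 22.6% of 18887 genes.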

How the data were processed

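Single-cell libraries of CD45-negative thymus cells, 2 WT and 2 Z/Z, were analysed. Per the file headers and the submitters' processing notes, the deposited UMI counts were made with Cell Ranger (7.01 in the notes) on mm10 (GRCm38.p5), 1 library at a time; more reads were assigned to the transcriptome (64.7% to 67.3%) than to exons (49.0% to 51.4%), so intronic reads were counted. Mapping and saturation percentages were deposited with the counts, as written by the same program (saturation 65.2% to 95.2%).

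Cells with over 1000 genes and under 20% mitochondrial UMIs were kept, the top 3.9% of Scrublet scores, the study's stated multiplet rate, were removed, and 94 ribosomal and haemoglobin features were left out. Cells were clustered with scanpy 1.11.5 and leidenalg 0.10.2 (3500 variable genes, 35 components, 45 within lineages, 20 neighbours, resolution 1), with 164 genes (the 10 genes, all lists and markers) held out. Clusters were named from marker lists with at least 3 detected markers. That minimum and a depth limit of 0.4 of the sample's median were set after the clusters were seen.

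Counts were summed per library and lineage, with sums of 10 or more cells, and tested over all genes with edgeR 4.0.16 (quasi-likelihood F test, TMM factors, its filter on low counts, Benjamini-Hochberg adjustment, threshold 0.05). Fits were Z/Z against WT within a lineage, lineages with library as a block, and genotype by lineage. DESeq2 1.42.0 was an alternative. Single values were compared with two-sided exact permutation tests. Statistics were checked on simulated data, with the same dispersion for every gene and changed genes drawn from all but the lowest counts. The shares recovered are therefore not the power for the 10 genes themselves. A true log2 change of 1 between genotypes was recovered for 46% of changed genes in TECs, 35.7% in fibroblasts, 13% in endothelial and 5.53% in mural cells. In the test of genotype by lineage it was recovered for 0%. For a change of 2 these shares were 97.5%, 98%, 90.3%, 84.3% and 87%. All 10 genes are named, and from each list at most 2 genes in each direction with the smallest adjusted p. The 10 genes and the lists were chosen with earlier results of these data known. CPM are UMIs scaled to the same total in every sum. Counting intervals were not used, and depth limits the WT 2 sums most.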

Additional observations from a re-analysis of the deposited data

Results flagged for a closer look

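The genotype difference depended on the lineage for 4 genes by edgeR's interaction test, with an adjusted p of 0.00361 for Fos, 0.000402 for Fosb, 0.00831 for Jun and 0.00144 for Atf3. In each the Z/Z to WT log2 fold change was over 1 in TECs, and the other 3 lineages had no call. With the Aire-stage TECs left out no gene passed this test.

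Droplets of 100 UMIs or fewer, which hold RNA from outside cells and enter no comparison, carried the 8 early response genes at 12436.9 CPM in Z/Z 1 and 10913.6 CPM in Z/Z 2, above the 3781 and 2809 CPM of the WT libraries. Kept cells of the same libraries had 16390.2 and 15349.9 CPM in Z/Z, and 9232 and 10268 CPM in WT. With this droplet profile subtracted from the sums, the summed level of the 10 genes in TECs was 0.919% in WT and 2.01% in Z/Z. The source of the droplet RNA was not tested.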

How the results depend on the processing

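Of 27 called differences between lineages, recomputed 513 times in all, 473 values kept direction and call and 40 lost the call, none turning sign. Of the 7 called genotype differences in TECs, 109 of 147 values kept both, 34 lost the call and 4 turned sign. In TECs the number of genes called between genotypes was 0 with shared barcodes left out, 0 with the same cells per cluster, 0 without the Aire-stage class and 0 in that class alone, and 4 to 8 when single libraries were left out (4 without WT 1 and without Z/Z 1, 5 without Z/Z 2, 8 without WT 2). A single remaining library was assumed to vary like the other group. With no filter on low counts 1 gene was called in fibroblasts, 2 in endothelial cells and 8 in the interaction. Leaving out single libraries gave 0 to 1 in endothelial and in mural cells and 2 to 6 in the interaction, which was 0 without the Aire-stage class. Without shared barcodes 1 gene was called in mural cells, with no WT 2 sum. With the same cells per cluster the log2 fold change turned to −0.0567 for Fos, −0.0293 for Egr1 and −0.252 for Ier2, and in the Aire-stage class alone to −0.257 for Ier2. These sums held fewer cells. The Z/Z minus WT difference of the summed level was 0.538 percentage points in thinned endothelial cells and 0.663 in TECs without the Aire-stage class. The cause was not tested.

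Replicate numbers did not pair the samples (correlation of same-numbered deviations −0.0966 to −0.00832). With the replicate number as a block 5 genes were called in TECs, Egr1 and Ier2 being lost, and 0 in each other lineage. Depth limits the endothelial and mural comparisons, with 25 and 11 cells in WT 2.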
